A study of Mus musculus with 12 samples.

Results

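The lysyl oxidases (Lox, Loxl1, Loxl2, Loxl3 and Loxl4) and the lysyl hydroxylases (Plod1, Plod2 and Plod3) were taken by symbol, as 8 of the 21556 genes counted. They were chosen with earlier results of these data known. RNA came from primary fibroblasts of mouse abdominal skin, in 4 groups of 3 libraries. The WT cells came from C57BL/6 mice and the Nox4 KO cells from the strain B6.129-Nox4tm1Kkr/J, whose targeted allele is present in every cell and not only in fibroblasts. All 12 cultures were starved before the experiment. The cells of 1 group of each genotype then received TGF-β2 at 10 ng/ml for 24 h and those of the other group (control, CTRL) did not. Both genotypes descended from heterozygous crosses and were afterwards bred as separate litters, so that litter and genotype cannot be told apart. The labels call the 3 samples of a group biological replicates, and the age of the mice that gave the cells is not given in the sources used here. The questions addressed were whether the 8 genes responded to TGF-β2 in cells of each genotype and whether their levels differed between the genotypes.

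Collagens and elastin gain their strength from covalent cross-links between lysine side chains. Inside the endoplasmic reticulum the lysyl hydroxylases add a hydroxyl group to chosen lysines of newly made collagen. Outside the cell the lysyl oxidases, which carry copper and a lysine-derived quinone, turn lysines and hydroxylysines into aldehydes that then react with their neighbours. TGF-β is known to raise the expression of several of these enzymes in fibroblasts, and stiff, heavily cross-linked collagen is a hallmark of scars and fibrosis.

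The copper site that gives the lysyl oxidase family its activity is shown as coding sequence for 4 members, because it is the feature they share and because near-identical stretches decide whether short reads can be assigned to a single member. Each line holds 12 codons (36 bases, 5′ to 3′ on the coding strand, GENCODE transcripts of GRCm38), and capitals mark the 4 histidine codons. They are codons 476 to 487 of Loxl1, 622 to 633 of Loxl2, 602 to 613 of Loxl3 and 606 to 617 of Loxl4.
Loxl1: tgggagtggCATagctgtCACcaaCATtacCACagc
Loxl2: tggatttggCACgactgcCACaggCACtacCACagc
Loxl3: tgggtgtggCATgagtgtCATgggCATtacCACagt
Loxl4: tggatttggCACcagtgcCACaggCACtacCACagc
Loxl2 and Loxl4 shared 34 of these 36 bases, and the other 5 pairs shared 24 to 27. Over whole transcripts, the longest run of identical bases shared by 2 members of the same family was 11 to 32 bases over 13 pairs, shorter than the sequenced reads in every pair. Counts of the 8 genes were therefore treated as separable.

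A second sequence marks a limit of the counts. Plod2 has 2 coding transcripts in this annotation, of 2211 and 2274 coding bases, which differ by the exon below (chr9:92601985-92602047, plus strand, GRCm38, 63 bases). The longer form is the one known for hydroxylating the telopeptides, the collagen ends at which cross-links start.
Plod2 alternative exon: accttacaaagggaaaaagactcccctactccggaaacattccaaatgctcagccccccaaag
This exon is 1.70% of the merged Plod2 exons, and the gene counts add both forms, so a switch between them could not be seen here. Of the 8 members 3 had a promoter among the RefSeq sequences used here, and only that of Plod3 belonged to the 3 members with the smallest adjusted p-values in WT. It is shown from 250 bases before to 50 bases after the start site (chr5:136986769-136987068, plus strand, GRCm38.p6). Capitals mark GCGTG and ACGTG, forms of the core bound by hypoxia-inducible factors, read on both strands.
Plod3 promoter: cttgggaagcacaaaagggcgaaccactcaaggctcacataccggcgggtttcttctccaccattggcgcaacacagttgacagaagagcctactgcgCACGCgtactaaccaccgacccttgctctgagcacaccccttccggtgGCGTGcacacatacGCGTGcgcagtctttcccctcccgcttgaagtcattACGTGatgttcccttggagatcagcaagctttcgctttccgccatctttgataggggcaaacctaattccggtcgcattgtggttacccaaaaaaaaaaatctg
GCGTG was found 3 times, starting at -152 (as its reverse complement), -104 and -90 from the start site, and ACGTG once, at -54. CAGAC, the short SMAD-binding element, was searched on both strands as well and was not among these letters. No match overlapped another. Of all 32851 promoters of this length, 32.4% held GCGTG, 19.6% held ACGTG and 49.6% held CAGAC.

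Libraries held 35118344 to 43796260 counted reads, and single members had 1537 to 277120 counts per library. Levels are given as RPKM, counts scaled to the length of a gene's merged exons and to the library total. Transcripts of Nox4, the targeted gene, were at 1.31 to 2.42 RPKM in WT and 0.636 to 1.399 RPKM in Nox4 KO without TGF-β2, and at 8.56 to 16.3 RPKM and 4.39 to 6.85 RPKM with it. Neither difference passed (adjusted p = 0.828 and 0.838), and a count over the whole gene does not read the targeted part of it. Among the genes used to check the stimulation, Smad7 and Ccn2 rose in both genotypes (1.76-fold to 3.01-fold), whereas Acta2 changed by 0.13 (WT) and -0.06 (Nox4 KO) on the log2 scale and did not pass. All 7 fibroblast markers were present in every group, but their summed level was lower after TGF-β2 without overlap, at 5311 to 6315 against 6479 to 7154 RPKM in WT and at 5699.7 to 6539 against 6615 to 7880.5 RPKM in Nox4 KO. Of these markers Pdgfra fell to 0.0983 of control in WT (adjusted p = 0.000597) and to 0.127 in Nox4 KO (adjusted p = 0.00128). Col3a1 also fell in both genotypes, from a mean of 1060 to 451 RPKM in WT and from 847 to 422 RPKM in Nox4 KO. Dcn passed as lower in Nox4 KO only. Col1a1, Col1a2, Thy1 and Vim did not pass in either genotype, and Vim lay above control (1.17-fold in WT and 1.07-fold in Nox4 KO). The summed adipocyte markers fell with TGF-β2. They lay between 17.1 and 26.0 RPKM in WT control and between 5.24 and 9.06 RPKM in WT after TGF-β2, and between 7.06 and 13.8 RPKM and between 2.43 and 5.05 RPKM in Nox4 KO, with 1 or 2 of the 5 genes reaching 1 RPKM in a group. The summed skeletal muscle markers rose through Acta1, while Myod1 and Myog were at 0 in every TGF-β2 library. The part of these in the members' changes was not tested, and in bulk RNA fewer cells of a type and less RNA per cell cannot be told apart.

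Lox, the founding enzyme of the family, was by far the most abundant member. Lox lies at chr18:52516067-52529867 (minus strand) and took 0.348% to 0.740% of all counted reads of a library. Its mean of 879 ± 44.3 RPKM (SD, n = 3) ranked 27 among the 21556 genes in WT control, and its mean after TGF-β2 ranked 17 in WT and 16 in Nox4 KO. Within the summed RPKM of the 5 lysyl oxidases Lox made up 58.4% to 72.2%, whereas Loxl4 (chr19:42593982-42612813, minus strand) made up 0.699% to 1.46%. Loxl1 (chr9:58287738-58313186, minus strand), Loxl2 (chr14:69609068-69695834, plus strand) and Loxl3 (chr6:83034173-83052562, plus strand) lay between them at 6.73% to 15.5% each.

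Among the hydroxylases Plod3, the only one of the 3 known also to attach galactose and glucose to hydroxylysine, was the most abundant. Plod3 (chr5:136987019-136996648, plus strand) made up 62.4% to 75.4% of the summed RPKM of the hydroxylases. Plod1 (chr4:147909753-147936767, minus strand), which hydroxylates the helical part of collagen, and Plod2 (chr9:92542223-92608428, plus strand) shared the rest. In WT control the order by RPKM was Lox, Plod3 (182 ± 9.50), Loxl3 (153 ± 25.8), Loxl2 (147 ± 31.9), Loxl1 (108 ± 9.28), Plod1 (36.8 ± 3.33), Plod2 (35.02 ± 10.9) and Loxl4 (12.1 ± 1.67; all SD, n = 3). The ranges of Loxl3 and Loxl2 overlapped, and so did those of Plod1 and Plod2, so these neighbours did not differ beyond their spread. With lengths from all transcripts in place of protein-coding ones, the WT control means became 137 RPKM for Plod3, below Loxl2, and 20.4 RPKM for Plod1, below Plod2 (24.1 RPKM), so the order holds for the first lengths only. Exons of Loxl3 share 535 bp with Htra2 and those of Plod3 share 529 bp with Znhit1, both on the opposite strand. Whether strand entered the counting is not given in the sources used here, so reads of these stretches could not be told apart. The levels of both neighbours were low by comparison (17.9 to 27.0 RPKM for Htra2 and 11.6 to 22.2 RPKM for Znhit1), and neither changed past the test in either genotype.

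**Figure D1:**
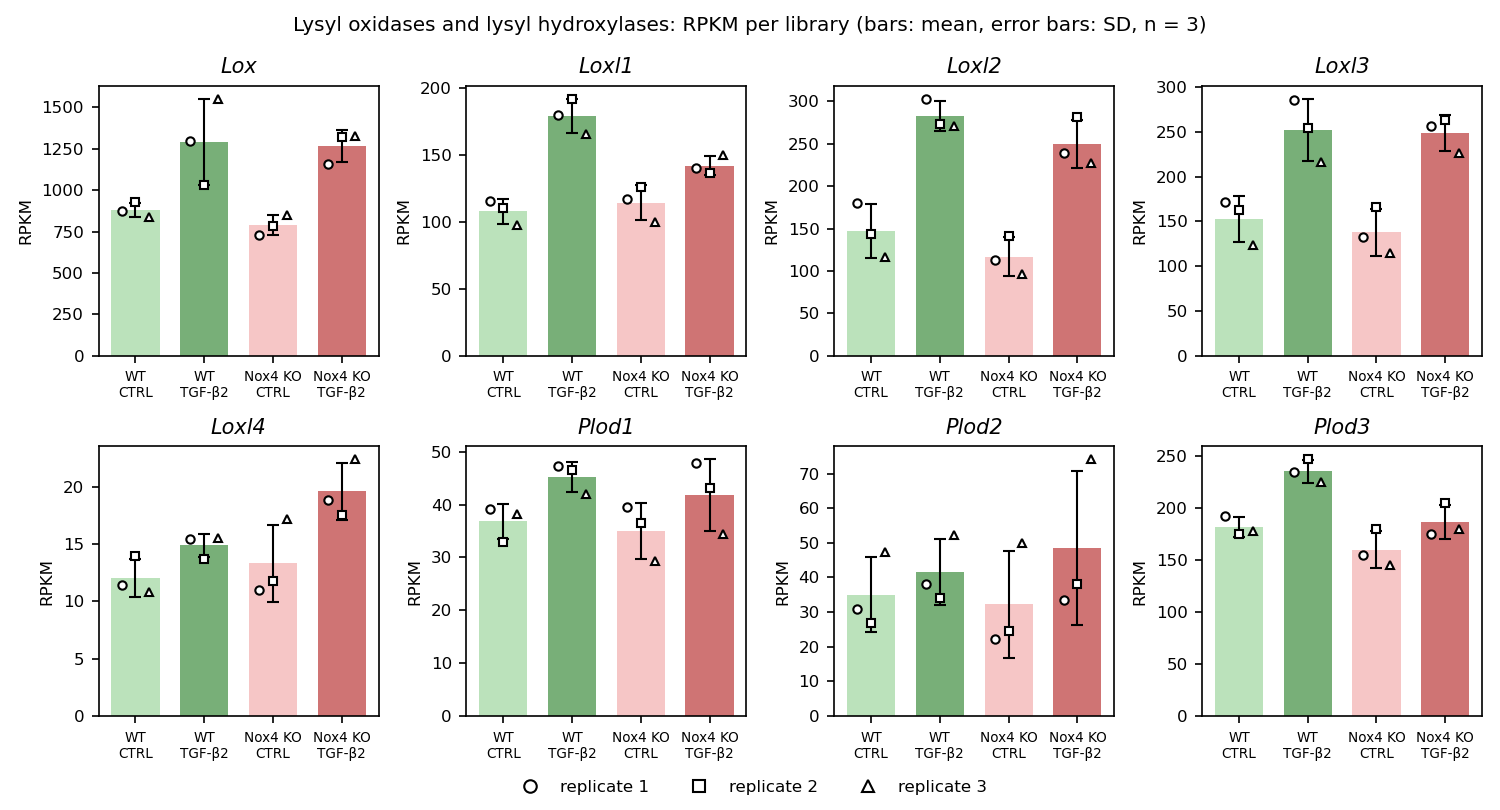
RPKM (y axis, linear, from 0) of the 8 genes in the 4 groups; bars are means, error bars SD (n = 3) and symbols the 3 libraries by replicate number. Lox reaches 1549 RPKM and Loxl4 stays under 23 RPKM, and the triangle of replicate 3 is the highest Plod2 point in all 4 groups.

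In WT fibroblasts TGF-β2 raised 4 lysyl oxidases (Lox, Loxl1, Loxl2 and Loxl3) and 1 lysyl hydroxylase (Plod3), by 1.33-fold to 1.98-fold. Thus 5 of the 8 members passed as higher and 0 as lower, where 10.4% of the 10743 genes tested passed as higher and 12.2% as lower. None of the 8 reached a 2-fold change together with the test, which 2.62% of all genes did as higher. The median log2 fold change was 0.50 over the members and -0.003 over all genes tested. Libraries did not overlap, with every TGF-β2 library higher, for 6 members (the 5 that passed and Plod1), against 20.3% of all genes.

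Loxl1, an enzyme needed for the renewal of elastic fibres, stood at 116, 110.3 and 97.6 RPKM in WT control libraries 1 to 3 and at 179.6, 191 and 166 RPKM after TGF-β2. The groups were well apart, with a gap between the highest control and the lowest stimulated library that exceeded the spread within either group. The log2 fold change was 0.77 ± 0.12 (SE; 1.70-fold, adjusted p = 0.00574), the smallest adjusted p-value of the 8 members. Loxl2, which oxidizes collagen IV of basement membranes and also has roles inside the cell, stood at 180.1, 143 and 117 RPKM in control and at 303, 273 and 271 RPKM after TGF-β2. All stimulated libraries lay above all control libraries, and the control libraries varied more than the stimulated ones. Its log2 fold change of 0.98 ± 0.19 (1.98-fold, adjusted p = 0.0119) was the largest of the members in WT.

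Loxl3, an oxidase with scavenger receptor domains like Loxl2 and Loxl4, stood at 172, 163 and 123 RPKM in WT control and at 286, 254 and 217 RPKM after TGF-β2. Replicate 3 was the lowest library in both groups, and the groups did not overlap. The change was 0.76 ± 0.18 on the log2 scale (1.69-fold, adjusted p = 0.0265). Lox stood at 872, 927 and 839 RPKM in control and at 1299.6, 1031 and 1549 RPKM after TGF-β2. The stimulated libraries were spread far more widely (SD 259 RPKM) than the control libraries (SD 44.3 RPKM), and replicate 2 came close to the control range without entering it. Its log2 fold change of 0.60 ± 0.17 (1.51-fold) passed narrowly (adjusted p = 0.0494) and did not pass with upper-quartile scaling (adjusted p = 0.0511).

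Loxl4 changed by 0.34 ± 0.13 on the log2 scale in WT (adjusted p = 0.112), with 11.4, 14.0 and 10.8 RPKM in control and 15.4, 13.7 and 15.5 RPKM after TGF-β2. The stimulated library of replicate 2 lay below the control library of replicate 2, so the groups overlapped. Plod3 stood at 193, 175 and 178 RPKM in control and at 235, 247 and 225 RPKM after TGF-β2, without overlap (log2 fold change 0.41 ± 0.10, 1.33-fold, adjusted p = 0.0255). Plod1 went from 33.0 to 39.1 RPKM in control to 42.0 to 47.2 RPKM after TGF-β2. These ranges did not overlap, yet the change of 0.34 ± 0.10 missed the threshold (adjusted p = 0.0588). It passed in DESeq2 (adjusted p = 0.0133), with edgeR's own filter on low counts (adjusted p = 0.0478) and with library totals over all genes (adjusted p = 0.0475), each of which gave 6 passing members. Plod2 differed by 0.29 ± 0.24 with overlapping groups (adjusted p = 0.410).

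The number of WT calls rested on single libraries. It fell to 1 (Loxl1) without TGF-β2 replicate 1 and to 2 (Loxl1 and Loxl2) without any 1 of the 3 control libraries. Without TGF-β2 replicate 3 it was 4 (Lox lost). It stayed at 5 without TGF-β2 replicate 2, where 3399 of all genes passed, against 2425 with every library. The highest adjusted p over these 6 fits was 0.0307 for Loxl1, which stayed past the threshold, 0.0520 for Loxl2, 0.0936 for Loxl3, 0.101 for Plod3 and 0.153 for Lox.

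In Nox4 KO fibroblasts TGF-β2 raised all 5 lysyl oxidases, by 1.32-fold to 2.27-fold, and no lysyl hydroxylase passed when libraries were not paired by number. Plod3 (adjusted p = 0.0942 there) passed as a sixth member in DESeq2 (adjusted p = 0.0421) and with all 12 libraries in the fit (adjusted p = 0.0322). Again 5 of the 8 members passed as higher and 0 as lower, where 15.1% of the 10809 genes tested passed as higher and 14.9% as lower. Only Loxl2 also reached a 2-fold change, as 2.22% of all genes did as higher. The 5 oxidases were also the members whose libraries did not overlap, with every stimulated library higher, against 17% of all genes. The median log2 fold change was 0.66 over the members and -0.01 over all genes tested.

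Lox rose from 729, 785 and 852 RPKM in Nox4 KO control to 1158, 1324 and 1325 RPKM after TGF-β2. The groups were far apart and each was narrow. The log2 fold change was 0.77 ± 0.09 (1.71-fold, adjusted p = 0.00425). Loxl2 stood at 113, 141 and 96.4 RPKM in control and at 239.8, 282 and 228 RPKM after TGF-β2, and Loxl3 at 133, 166 and 115 RPKM and at 257, 263 and 226 RPKM. For both genes replicate 2 was the highest and replicate 3 the lowest library, in control and after TGF-β2 alike. Loxl2 rose by 1.18 ± 0.17 on the log2 scale (2.27-fold, adjusted p = 0.00695) and Loxl3 by 0.93 ± 0.16 (1.91-fold, adjusted p = 0.0106).

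Loxl1 stood at 117, 126 and 99.9 RPKM in Nox4 KO control and at 139.8, 136 and 149.8 RPKM after TGF-β2. The stimulated libraries lay close above the control library of replicate 2, and the log2 fold change was 0.40 ± 0.11 (1.32-fold, adjusted p = 0.0372). Loxl4 stood at 11.03, 11.8 and 17.2 RPKM in control and at 18.8, 17.6 and 22.4 RPKM after TGF-β2. Replicate 3 was the highest library of both groups, and the groups were separated by a narrow gap (log2 fold change 0.65 ± 0.18, 1.56-fold, adjusted p = 0.0386). The calls of Loxl1 and Loxl4 were lost under some settings. With scaling by the total count, which shifted the median of all genes to -0.10, or by the upper quartile, the 3 members passing were Lox, Loxl2 and Loxl3. The same 3 passed without control replicate 1 and without any of the 3 stimulated libraries, and Loxl4 was also lost without control replicate 2. The highest adjusted p over the 6 fits that left out 1 library was 0.0997 for Loxl1 and 0.115 for Loxl4, against 0.0277 for Lox, 0.0329 for Loxl2 and 0.0490 for Loxl3.

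**Figure D2:**
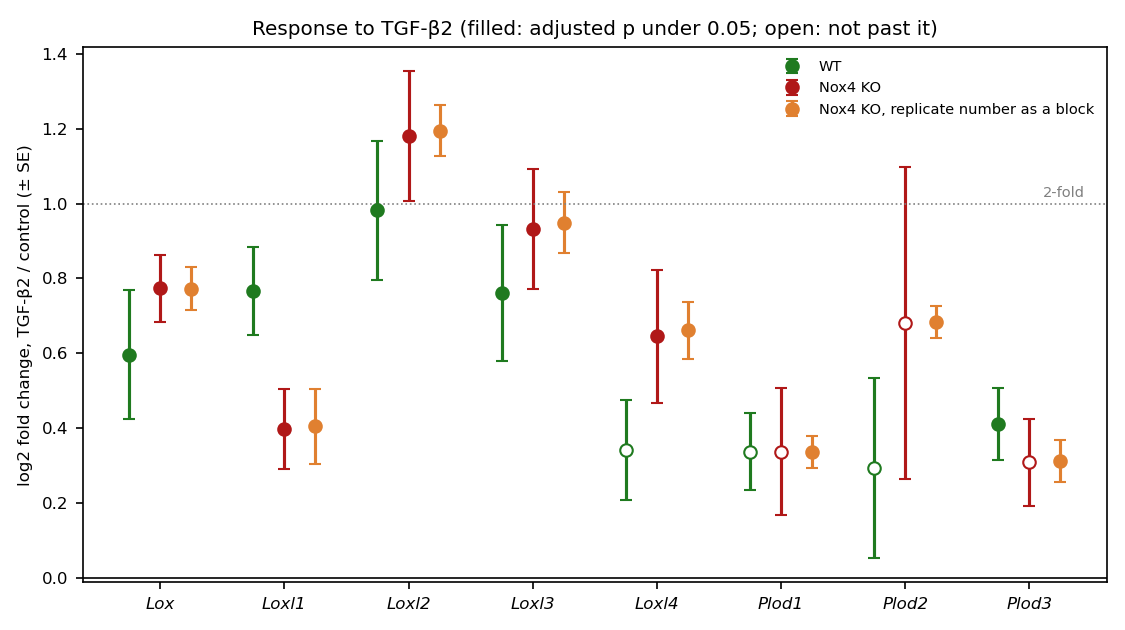
Log2 fold change (y axis) of TGF-β2 over control for the 8 genes in WT (green), in Nox4 KO (red) and in Nox4 KO with the replicate number as a block (orange); error bars are SE, and filled symbols passed at an adjusted p under 0.05. All points lie above 0, and the orange bar of Plod2 is far shorter than the red one (SE 0.04 against 0.42).

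The levels of the lysyl hydroxylases in Nox4 KO cells varied with the replicate number. Plod2 stood at 22.1, 24.5 and 49.9 RPKM in control and at 33.3, 38.0 and 74.2 RPKM after TGF-β2. Replicate 3 was far above the others in both groups, 2.14 and 2.08 times the mean of replicates 1 and 2, so that the groups overlapped (log2 fold change 0.68 ± 0.42, adjusted p = 0.254). Within each number, however, the stimulated library exceeded the control library by nearly the same factor, 1.51, 1.55 and 1.48 for replicates 1 to 3. Plod1 ranged from 29.2 to 39.5 RPKM in control and from 34.4 to 47.9 RPKM after TGF-β2, with replicate 3 the lowest in both groups and same-number ratios of 1.18 to 1.21. Plod3 ranged from 145 to 179.9 RPKM in control and from 175 to 205 RPKM after TGF-β2, with same-number ratios of 1.13 to 1.24.

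Same-numbered Nox4 KO libraries deviated together from their group means over all genes. The sources used here do not state a pairing, but the comparison was also fitted with the number as a block. All 8 members then passed as higher, against 25.2% of all genes as higher and 28.8% as lower. Plod2 rose by 0.68 ± 0.04 on the log2 scale (1.61-fold, adjusted p = 0.000353), Plod1 by 0.34 ± 0.04 (1.26-fold, adjusted p = 0.00235) and Plod3 by 0.31 ± 0.06 (1.24-fold, adjusted p = 0.00701). The fold changes were close to those without the block, and the standard errors of the hydroxylases were smaller. The 5 oxidases passed as before, with log2 fold changes of 0.41 (Loxl1) to 1.19 (Loxl2).

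**Figure D3:**
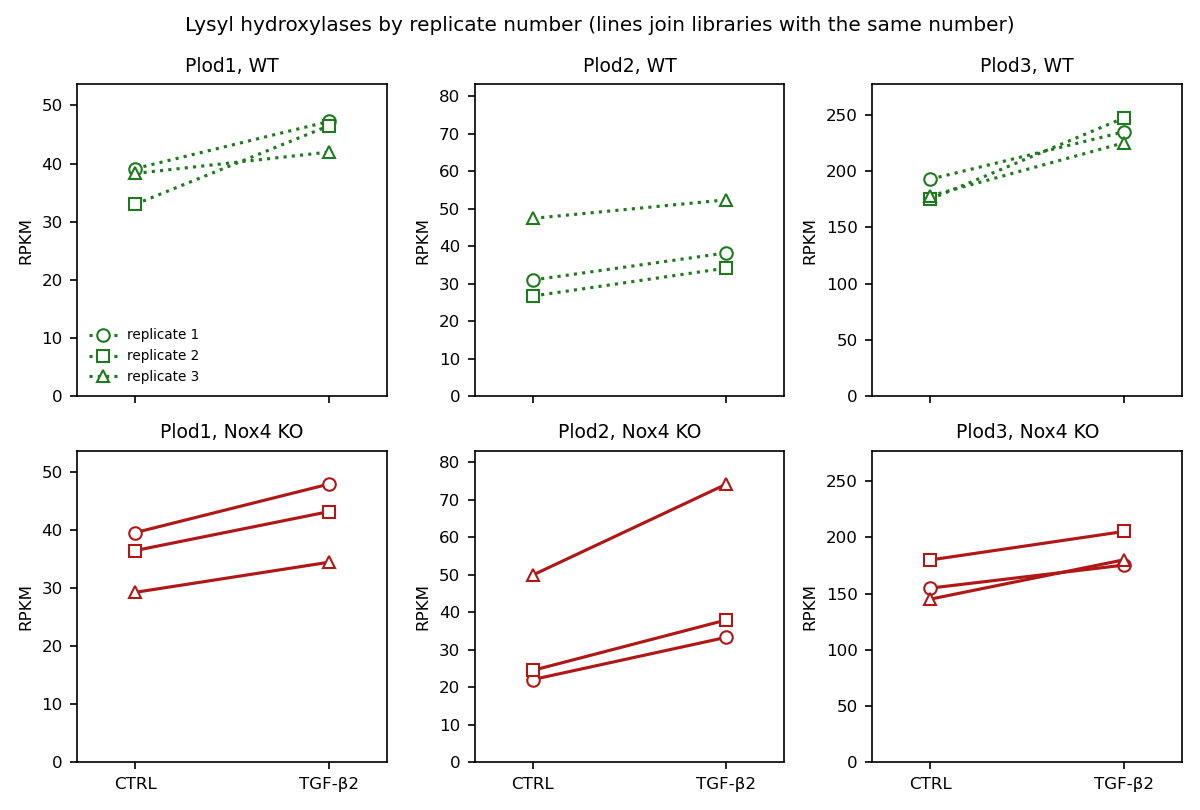
RPKM (y axis, linear, from 0) of Plod1, Plod2 and Plod3 in control and TGF-β2 libraries of WT (upper row, dotted) and Nox4 KO (lower row, solid); each line joins the 2 libraries with the same replicate number. In Nox4 KO the Plod2 lines climb by similar factors (1.48 to 1.55) from different levels, with replicate 3 on top.

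The high Plod2 level of replicate 3 was seen in WT too. Plod2 stood at 31.0, 26.7 and 47.4 RPKM in WT control and at 38.2, 34.1 and 52.3 RPKM after TGF-β2, replicate 3 being 1.64 and 1.45 times the mean of the others. It thus was the highest of 3 libraries in all 4 groups, and Plod2 was the only member for which this was so. Same-number ratios of Plod2 in WT were 1.23, 1.28 and 1.10. With the number as a block its change in WT was 0.31 ± 0.09 on the log2 scale (adjusted p = 0.0541). Replicate 3 was on the other hand the lowest library of all 4 groups for Loxl2 and Loxl3, and replicate 1 was the highest of all 4 groups for Plod1. Myeloid markers also differed between replicates, with a summed level of 22.6 to 105.8 RPKM in WT control, 18.1 to 72.0 RPKM in WT after TGF-β2, 17.96 to 81.0 RPKM in Nox4 KO control and 11.6 to 58.3 RPKM in Nox4 KO after TGF-β2 (3 or 4 of 5 genes at 1 RPKM or more). Within replicates 1 to 3 the sum was lower after TGF-β2, from 40.1 to 29.7, 22.6 to 18.1 and 105.8 to 72.0 RPKM in WT. In Nox4 KO it went from 81.0 to 58.3, 29.2 to 20.7 and 17.96 to 11.6 RPKM. Lyz2, Cd68, Csf1r and Adgre1 passed as lower in Nox4 KO with the block and not without it. The part of this in the members' changes was not tested. The myeloid sum was highest in replicate 3 in WT but lowest in replicate 3 in Nox4 KO, and what sets replicate 3 apart was not tested.

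Between the genotypes no member differed past the test. In control 0 of the 8 members passed in either direction (0% of the 10767 genes tested as higher and 0% as lower), and none had an unadjusted p under 0.05, against 5.54% of all genes (597) in edgeR. DESeq2 passed 28 genes here, none of them a member. The study, also with edgeR, reported a few genes as differing between the genotypes, in control and after TGF-β2, Ucp2 and Hddc3 among them. These did not pass in the edgeR fits here, so 0 passing genes does not show that differences are absent. The smallest adjusted p-value of a member was 0.828, and libraries of the 2 genotypes overlapped for all 8, where 13.6% of all genes did not overlap in either direction. The 95% interval of the log2 difference of Nox4 KO from WT ran from -0.45 to 0.05 for Lox, from -0.49 to 0.04 for Plod3 and from -0.90 to 0.16 for Loxl2. For Plod2, with its wide spread between replicates, it ran from -0.999 to 0.68.

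After TGF-β2 again 0 of the 8 members passed (0% of the 10439 genes tested as higher and 0% as lower). Of the members 3 had an unadjusted p under 0.05, against 3.23% of all genes (337), and the same 3 did not overlap between the genotypes, against 10.1% of all genes. Loxl1 was lower in Nox4 KO (136 to 149.8 against 166 to 191 RPKM; log2 difference -0.31 ± 0.09, unadjusted p = 0.0124), and so was Plod3 (175 to 205 against 225 to 247 RPKM; -0.31 ± 0.10, unadjusted p = 0.0171). Loxl4 was higher in Nox4 KO (17.6 to 22.4 against 13.7 to 15.5 RPKM; 0.41 ± 0.13, unadjusted p = 0.0145). All 3 had an adjusted p of 0.838, and the two-sided exact permutation test gave 0.1 for each, the smallest p that 3 libraries against 3 allow. DESeq2 passed 16 genes in this comparison and none of the members (smallest adjusted p = 0.182). The differences of Lox (-0.01 ± 0.18) and Loxl3 (-0.000646 ± 0.14) were the smallest, with 95% intervals from -0.43 to 0.41 and from -0.33 to 0.33.

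The difference between the responses of the 2 genotypes was tested as an interaction over all 12 libraries, and 0 members passed (0% of the 10890 genes tested as higher and 0% as lower). Only Loxl1 had an unadjusted p under 0.05, against 2.68% of all genes (292). Its response was smaller in Nox4 KO (1.32-fold) than in WT (1.70-fold), an interaction of -0.35 ± 0.16 on the log2 scale (unadjusted p = 0.0452, adjusted p = 0.854). Loxl4 had the opposite sign (0.32 ± 0.24, adjusted p = 0.854). Without the block Plod3 passed in WT and not in Nox4 KO, and Loxl4 in Nox4 KO and not in WT, but these calls alone do not show a difference between the genotypes.

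**Figure D4:**
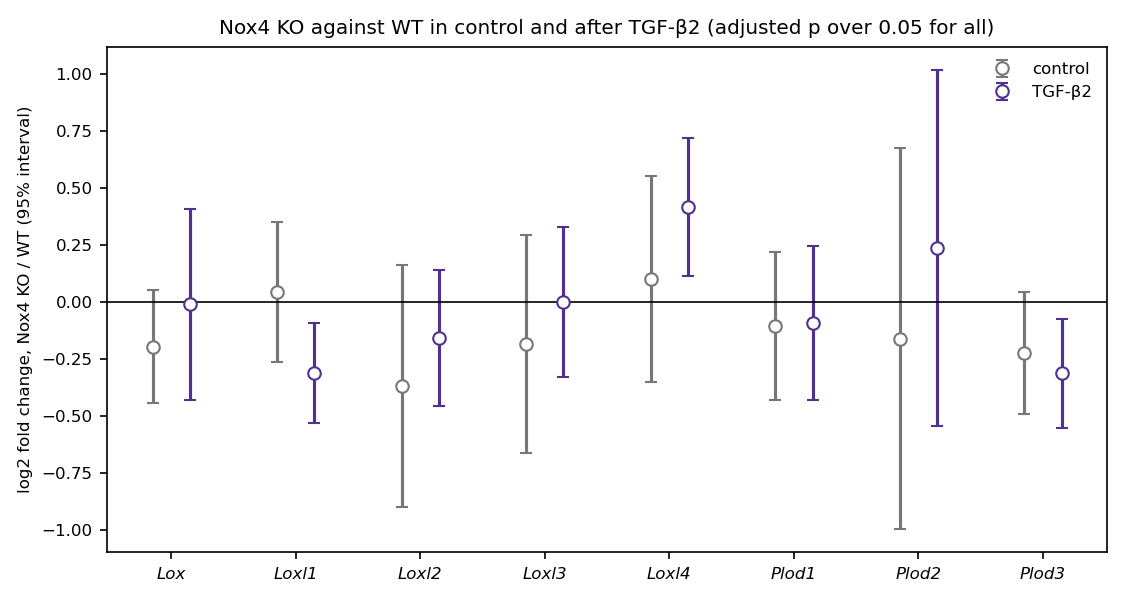
Log2 difference (y axis) of Nox4 KO from WT for the 8 genes in control (grey) and after TGF-β2 (violet); error bars are 95% intervals, and 0 members passed. After TGF-β2 the intervals of Loxl1 and Plod3 lie below 0 and that of Loxl4 lies above it (unadjusted p = 0.0124 to 0.0171), while Plod2 has the longest intervals.

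Genes of the proteins on which these enzymes act changed unevenly. Of 9 substrate genes 2 rose and 1 fell in each genotype (median log2 fold change -0.08 in WT and 0.13 in Nox4 KO). Over all genes tested 10.4% passed as higher and 12.2% as lower in WT, and 15.1% and 14.9% in Nox4 KO. Eln, which encodes elastin, rose 4.62-fold in WT (adjusted p = 0.00770) and 5.69-fold in Nox4 KO (adjusted p = 0.00283). Col5a3, a minor collagen V chain, rose 3.90-fold (adjusted p = 0.0151) and 6.10-fold (adjusted p = 0.0315). Col3a1, the chain of collagen III, fell to 0.440 of control in WT (adjusted p = 0.0109) and to 0.529 in Nox4 KO (adjusted p = 0.00989). The chains of collagen I, the most abundant substrate, differed by -0.08 (Col1a1) and -0.21 (Col1a2) on the log2 scale in WT and by -0.04 each in Nox4 KO, and did not pass.

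Of 14 tested genes for other steps of collagen modification in the endoplasmic reticulum, 4 rose and 1 fell in WT (median 0.21). In Nox4 KO 7 of them rose and 2 fell (median 0.17). None of the 14 changed 2-fold. Among all genes tested, 10.4% passed as higher and 12.2% as lower in WT, and 15.1% and 14.9% in Nox4 KO. The 4 that rose in WT were P3h1 (1.48-fold), a prolyl 3-hydroxylase, P4hb (1.398-fold), a subunit of prolyl 4-hydroxylase, Colgalt1 (1.44-fold), which adds galactose to hydroxylysine, and Fkbp10 (1.49-fold), a chaperone needed for telopeptide hydroxylation. All 4 were also among the 7 that rose in Nox4 KO (1.33-fold to 1.498-fold), beside P4ha3, Ppib and Fkbp14. P4ha2, a catalytic subunit of prolyl 4-hydroxylase, fell in WT (0.691 of control), and P3h3 and Crtap fell in Nox4 KO (0.817 and 0.849). These genes are named after their values were seen. Of 6 tested genes for removal of collagen propeptides, 2 rose and 1 fell in each genotype, beside the shares of all genes given above. Tll1, a protease of the Bmp1 group, rose 3.27-fold in WT (adjusted p = 0.0174) and 5.03-fold in Nox4 KO (adjusted p = 0.00779), and Pcolce2, an enhancer of these proteases, rose 2.51-fold and 2.35-fold (adjusted p = 0.00411 and 0.0125). The gene that fell was Adamts2 in WT and Pcolce in Nox4 KO (0.616 of control, named after its value was seen). Bmp1, which also releases active Lox from its precursor, changed 1.21-fold in WT and 1.29-fold in Nox4 KO (adjusted p = 0.0805 and 0.130; with the block in Nox4 KO, adjusted p = 0.00318). Adamts2, which removes the amino-terminal propeptide, fell to 0.463 of control in WT (adjusted p = 0.0262) and was at 0.506 in Nox4 KO (adjusted p = 0.0610; with the block, adjusted p = 0.000237).

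Genes that bind the enzymes or supply their copper were followed as well. For comparison, 10.4% of all genes tested passed as higher and 12.2% as lower in WT, and 15.1% and 14.9% in Nox4 KO. Of 6 matrix partners 0 rose and 1 fell in WT, and 1 rose and 1 fell in Nox4 KO. Fbln5, fibulin-5, which joins elastin and Loxl1, fell in both genotypes (0.579 and 0.582 of control, adjusted p = 0.00612 and 0.0153), and the gene that rose in Nox4 KO was Thbs1 (1.21-fold). Both are named after their values were seen. Of 4 tested copper genes 0 passed in WT, and 1 rose and 1 fell in Nox4 KO, beside the shares of all genes above. The gene that rose was Atp7a, the pump that loads copper onto secreted enzymes (1.41-fold, adjusted p = 0.0259). The chaperone Atox1 fell to 0.833 of control (adjusted p = 0.0314). Both are named likewise. Aoc3, an unrelated copper amine oxidase, fell to 0.431 of control in WT (adjusted p = 0.00157) and to 0.512 in Nox4 KO (adjusted p = 0.0340). Lox, Loxl2, Plod1 and Plod2 are among the known targets of hypoxia-inducible factors. Of 12 other such targets 2 rose and 2 fell in WT, and 1 rose and 2 fell in Nox4 KO (medians -0.20 and -0.15). The shares of all genes given above apply here too. Vegfa rose 2.17-fold and 2.43-fold (adjusted p = 0.00261 and 0.0418), while Adm fell to 0.160 and 0.125 of control (adjusted p = 0.000597 and 0.00482). The others that passed, named after their values were seen, were Ndrg1, which rose in WT (1.69-fold), and Pdk1, which fell in both genotypes (0.528 and 0.694 of control). With the block, the counts in Nox4 KO became 7 higher and 4 lower among modification genes, 3 higher and 1 lower among substrates, 3 and 2 among propeptide genes, 2 and 3 among matrix partners, 2 and 2 among copper genes and 3 and 4 among hypoxia targets. In that blocked fit 25.2% of all genes passed as higher and 28.8% as lower. No gene of these 7 lists passed between the genotypes or in the interaction.

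Over the 12 libraries the genes whose log2(CPM + 0.5) profile was most like that of a member were sought among 10890 genes. These correlations describe libraries that share group and replicate number and carry no test. Loxl2 was closest to Slc7a6 (r = 0.98) and Loxl3 to Lyn (r = 0.98), and Loxl2 itself was among the 3 genes closest to Loxl3 (r = 0.97). Lox was closest to Mapk6 (r = 0.98), with Smurf2, an inhibitor of TGF-β signalling, among the 3 closest (r = 0.97). Plod1 was closest to Bmp1 (r = 0.97) and had the copper importer Slc31a1 among its 3 closest (r = 0.94). Loxl1 was closest to Nle1 (r = 0.96), Loxl4 to Dnajc10 (r = 0.94), Plod2 to Nt5dc1 (r = 0.95) and Plod3 to Dtnb (r = 0.97). Over the 28 pairs of members r ranged from -0.18 to 0.97, with a median of 0.66.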

How the data were processed

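Per the labels and the methods of the study, the authors used CASAVA 1.8.2, aligned the single-end reads to GRCm38 with STAR 2.4, kept only those with a unique position and assigned them with featureCounts 1.4.6 to gene models that join the exons of every protein-coding isoform. The deposited values are these raw counts for 21556 genes in 12 libraries. All columns were assigned to a sample by their names. Genes were matched by Ensembl ID to GENCODE M21, and RPKM was computed from the count, the library total and the merged exon length.

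Genes whose RPKM averaged 1 or more in any group of the fit were tested with edgeR 4.0.16 (quasi-likelihood test, TMM scaling, Benjamini-Hochberg adjustment over all genes kept) in R 4.3.3. A gene passed at an adjusted p under 0.05. All 8 members met the filter in every fit. Each pair of groups was fitted on its own 6 libraries and the interaction on all 12. Standard errors were derived from the F statistic. Replicates of a group differed by more than sampling noise (chi-square of 14.4 to 147 per gene). The procedure was tested on simulated counts.

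The 8 members, the 7 pathway lists and the marker lists were chosen with earlier results of these data known, and genes of a list were named where they passed with at least a 2-fold change in WT or Nox4 KO, unless stated. Groups share replicate numbers. Deviations of same-numbered libraries from their group means correlated at 0.764, 0.689 and 0.741 in Nox4 KO, control against TGF-β2. The number was therefore used as a block there. That block rests on this check alone, as the sources used here do not state a pairing. What makes same-numbered libraries alike was not tested.

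Alternatives were DESeq2 1.42.0, upper-quartile and total-count scaling, other filters, all 12 libraries in each fit, a replicate block, a fold limit, gene lengths from all transcripts and leaving out each library. Library totals over all genes, and a block within each genotype for the interaction, were added after seeing the data. A count of 0 allows up to 3 counts, and such limits cover counting error only.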

Additional observations from a re-analysis of the deposited data

How the results depend on the processing

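With the 2-fold limit added, 0 members passed in WT and 1 in Nox4 KO. In Nox4 KO, 3 members passed with upper-quartile and with total-count scaling, and 8 passed with the replicate block. Leaving out 1 library gave 1 to 5 passing members in WT and 3 to 5 in Nox4 KO. In the 2 comparisons of genotypes and in the interaction 0 members passed in every alternative, the replicate block included. In WT same-numbered libraries correlated less than in Nox4 KO (0.0432, 0.412 and 0.516). There the block gave 4 members (Lox not passing, adjusted p = 0.0644).

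Signs changed only for differences between genotypes and for the interaction, none of which passed. After TGF-β2 the log2 difference became 0.00286 for Loxl3 in DESeq2 and, with the block, 0.00953 for Lox and 0.00658 for Loxl3. The interaction of Plod1 became -0.0382 with upper-quartile scaling, -0.0438 with total-count scaling and -0.0149 with no filter. Without single libraries the differences in control ranged from -0.0451 to 0.140 for Loxl1, -0.11 to 0.23 for Loxl4, -0.206 to 0.0184 for Plod1 and -0.606 to 0.0893 for Plod2. After TGF-β2 they ranged from -0.17 to 0.14 for Lox, -0.0932 to 0.129 for Loxl3, -0.204 to 0.0343 for Plod1 and -0.20 to 0.44 for Plod2. Interactions ranged from -0.13 to 0.14 for Plod1, -0.0370 to 0.827 for Plod2 and -0.186 to 0.0163 for Plod3. The cause was not tested. With gene lengths from all transcripts mean levels fell by more than 1 SD for Loxl3 in Nox4 KO after TGF-β2 (221 RPKM), Loxl4 in WT after TGF-β2 (13.6 RPKM), Plod2 in WT after TGF-β2 (28.6 RPKM) and, in all 4 groups, for Plod1 (19.4 to 25.1 RPKM) and Plod3 (120.3 to 177 RPKM), which have longer models there. Each member had at least 1537 counts in each library, and what limits these comparisons was not tested.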
